A study of Homo sapiens with 8 samples.

Results

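The SR splicing factor genes were followed in NALM6, a human cell line established from B-cell precursor acute lymphoblastic leukaemia. The set holds 10 genes, chosen by name, of 27408 genes in the all-read table and 6993 genes in the converted-read table. They are the classical SR genes SRSF1, SRSF2, SRSF3, SRSF4, SRSF5, SRSF6 and SRSF7, the related SRSF11, and the transformer-2 genes TRA2A and TRA2B. The cells carried a doxycycline-inducible HMGN1, a small chromatin protein that binds nucleosomes. The induced mutant group (2 libraries, A and B) had the S20,24E form, which is deficient in nucleosome binding, and received doxycycline. The induced wild type group (3 libraries, A to C) had wild-type HMGN1 and received doxycycline. The vehicle group (3 libraries, A to C) was the wild-type HMGN1 line without doxycycline. Doxycycline at 100 ng/ml or vehicle was given for 6 h, and in all groups the final 5 h included 100 µM of the nucleoside label 4-thiouridine. SLAM-seq reads the incorporated 4-thiouridine as T-to-C conversions, so that RNA made during labelling can be told from older RNA. Vehicle-treated cells of the mutant line and cells without 4-thiouridine were not analysed here, so a difference between mutant and vehicle groups cannot be told apart from a difference between cell lines. The libraries are described as biological replicates, and where a group's values are listed they stand in the order A, B and, where present, C.

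SR proteins bind exonic enhancers through RNA-recognition motifs and recruit the spliceosome through a domain rich in arginine and serine. Kinases of the CLK and SRPK families phosphorylate that domain, which sets where in the nucleus the proteins act. Many SR genes control their own level: a cassette exon that holds an early stop codon, called a poison exon, is included when the protein is abundant, and the resulting transcript is removed by nonsense-mediated decay. In blood cancers SRSF2 is known for recurrent mutations in myeloid disease.

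Libraries held 7.99 to 17.7 M reads, and the 10 genes had 275 to 3768 reads each per library. All 8 precursor B-cell markers were at 1 CPM or more in every library, while the 4 T-cell and 3 erythroid markers were each below 0.15 CPM. Of 4 myeloid markers only CSF1R was abundant, at 338 to 512 CPM. HMGN1 averaged 211 ± 16.7 CPM in the induced mutant (SD, n = 2), 262 ± 51.0 CPM in induced wild type and 163 ± 24.4 CPM with vehicle (SD, n = 3 each), and the reads of the induced and the resident gene were not separated. Induced wild type C and vehicle A stood at the ends of the all-gene median conversion rate, at 7.04% and 4.69%, and results that rest on vehicle A are given without it as well. The test statistics below are from limma, fitted across all genes of a table on the log2 scale, with Benjamini-Hochberg adjusted p-values called below 0.05. New RNA below is CPM multiplied by the conversion rate. That rate is per T base, so the product is an index and not the CPM of newly made RNA. In new RNA HMGN1 rose in induced wild type against vehicle, with a log2 fold change of 2.04 ± 0.28 (SE) and a limma adjusted p of 0.04. That was the only HMGN1 call: new RNA of the induced mutant against vehicle gave 1.38 ± 0.31 (SE, limma adjusted p = 0.164), and the conversion rate of induced wild type against vehicle 1.39 ± 0.30 (SE, limma adjusted p = 0.118). Converted FPKM gave -0.35 ± 0.40 for the induced mutant and 0.34 ± 0.36 for induced wild type, both against vehicle (SE, limma adjusted p = 0.815 and 0.822).

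The deposited tables list transcripts, and the 2 tables behaved differently among transcripts of a gene. In all reads every member's transcripts had identical values, as did 44 of 44 transcript pairs of all genes with the same span but exon lengths over 300 bases apart. Of 268 pairs in which one transcript starts over 5000 bases upstream of the other, that one was higher in 250. All-read CPM is read here, by inference, as a value for a gene's whole span, introns included. Annotated transcripts of a member can differ in span, as for SRSF3 at 11.2 and 7.65 kb and for SRSF6 at 6.32 and 3.41 kb. Their values were still identical, which a count over each transcript's own span would not predict. Which bases were counted is therefore not settled. In converted reads a transcript's value followed its introns: of 1760 transcript pairs in which the introns of one contained those of the other, the row with more intron was never lower in 1758. Of single-exon transcripts, 93 of 98 were at 0 in all libraries, against 63 of 7360 transcripts with several exons. The difference between such a pair of rows of a gene is then the converted signal that touches the sequence annotated as intron in one row and as exon in the other. Values were also not divided by length, since 94.9% to 99.6% of low values in a library (below 3.5 steps) lay within 0.1 step of a whole multiple of a single step, which was 0.175 to 0.523 converted FPKM and is taken here as the worth of 1 read.

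For SRSF3 and SRSF6, whose proteins are a short and a long classical SR protein, that sequence is a cassette exon that the coding row skips and the noncoding row includes. The SRSF3 exon lies at chr6:36599821-36600276 (+ strand, GRCh38, 456 bases) and the SRSF6 exon at chr20:43459153-43459420 (+ strand, GRCh38, 268 bases). Both are shown because each stops the reading frame of its gene, which is what defines a poison exon. Capitals mark the first stop codon in the frame carried over from the upstream exons of the GENCODE 29 transcript. For SRSF3 the first 300 bases, chr6:36599821-36600120, are given.

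SRSF3 cassette exon: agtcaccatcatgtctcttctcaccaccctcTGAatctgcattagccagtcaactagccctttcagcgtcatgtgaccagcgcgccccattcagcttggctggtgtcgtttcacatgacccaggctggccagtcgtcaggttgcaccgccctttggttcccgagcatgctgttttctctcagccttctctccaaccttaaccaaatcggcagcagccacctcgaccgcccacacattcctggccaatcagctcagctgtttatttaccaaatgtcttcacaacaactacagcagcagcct

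SRSF6 cassette exon: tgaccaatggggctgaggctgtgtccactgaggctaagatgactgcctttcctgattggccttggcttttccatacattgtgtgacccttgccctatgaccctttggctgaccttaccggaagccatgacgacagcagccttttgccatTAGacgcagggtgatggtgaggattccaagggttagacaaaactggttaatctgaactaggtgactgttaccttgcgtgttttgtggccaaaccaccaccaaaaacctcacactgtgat

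The SRSF3 stop is a TGA at position 32 of the exon, counted from its 5′ end, and the SRSF6 stop is a TAG at position 150. In SRSF7, which encodes an SR protein with a zinc knuckle, the sequence that separates the 2 rows is a short exon at chr2:38746144-38746179 (- strand, GRCh38, 36 bases). It is a multiple of 3 in length and holds no stop codon in frame.

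SRSF7 short exon: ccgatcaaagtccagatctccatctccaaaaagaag

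The SRSF3 cassette exon carried most of the coding row's converted signal in every library. By the row comparison above that signal touches introns, so new RNA read only on other exons is not in it. Of the coding row's converted FPKM, 80.8% and 91.0% touched the exon in the mutant libraries, 74.0%, 75.8% and 77.6% in the induced wild type libraries, and 75.1%, 70.9% and 78.8% in the vehicle libraries. The exon is 6.50% of the coding row's intron bases. All 8 shares were above 70%, and both mutant libraries were above every library of the other groups. The mean share was 85.9% in the induced mutant and 74.9% with vehicle, a difference of 11.0 percentage points with an exact two-sided permutation p of 0.1, the smallest that 2 against 3 libraries allow, and an adjusted p of 0.4 over 24 such tests. Against induced wild type the difference was 10.1 points with the same exact p and the same adjusted p. The reads behind these shares were few: about 31 and 21 in the mutant libraries, 8 to 63 in induced wild type and 8 to 48 with vehicle. The exact 95% interval of the share was 62.5% to 92.5% in induced mutant A and 44.0% to 89.7% in vehicle B, so single libraries are not told apart by counting error alone. In absolute terms the signal on the exon overlapped between groups, at 6.25 to 7.42 converted FPKM in the induced mutant, 2.98 to 10.0 in induced wild type and 3.16 to 6.62 with vehicle. For comparison, among 405 genes with a pair of rows that differ by a single internal exon of at least 30 bases, the exon carried a median of 9.6% of the converted value (quartiles 1.3% and 28.9%), and 21 genes reached 70%. SRSF3 stood at 78.2%, SRSF6 at 57.6% and SRSF7 at 30.4% over the means of all libraries in that set. These genes were not chosen for having a poison exon, and row pairs were chosen after their values were seen. In that set each gene kept its pair with the highest share, and exon length was not matched to the 456 bases of the SRSF3 exon. How often the groups separate among all row pairs was not counted. For SRSF3 and the row pairs below, non-overlap is therefore given without a rate to compare it with.

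The SRSF6 cassette exon held 71.2% and 61.6% of the coding row's converted FPKM in the mutant libraries. It held 61.1%, 19.4% and 58.9% in the induced wild type libraries, and 33.1%, 77.1% and 68.0% in the vehicle libraries. The lowest shares came from libraries with few converted reads of the coding row, about 10 in induced wild type B and 6 in vehicle A. There the 95% intervals were 2.5% to 55.6% and 4.3% to 77.7%. The exon makes up 13.4% of the coding row's intron bases. The difference of the mean shares was 7.02 points for induced mutant against vehicle (exact permutation p = 0.9). It was 19.96 points for induced mutant against induced wild type, where the groups did not overlap (exact permutation p = 0.4). For SRSF7 the 36-base exon separated the rows by 26.1% and 38.4% of the higher row in the mutant libraries, 19.9% to 41.5% in induced wild type and 24.2% to 30.9% with vehicle, although it is 0.66% of the intron bases. This share is a difference between rows and not a level of exon inclusion.

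**Figure D1:**
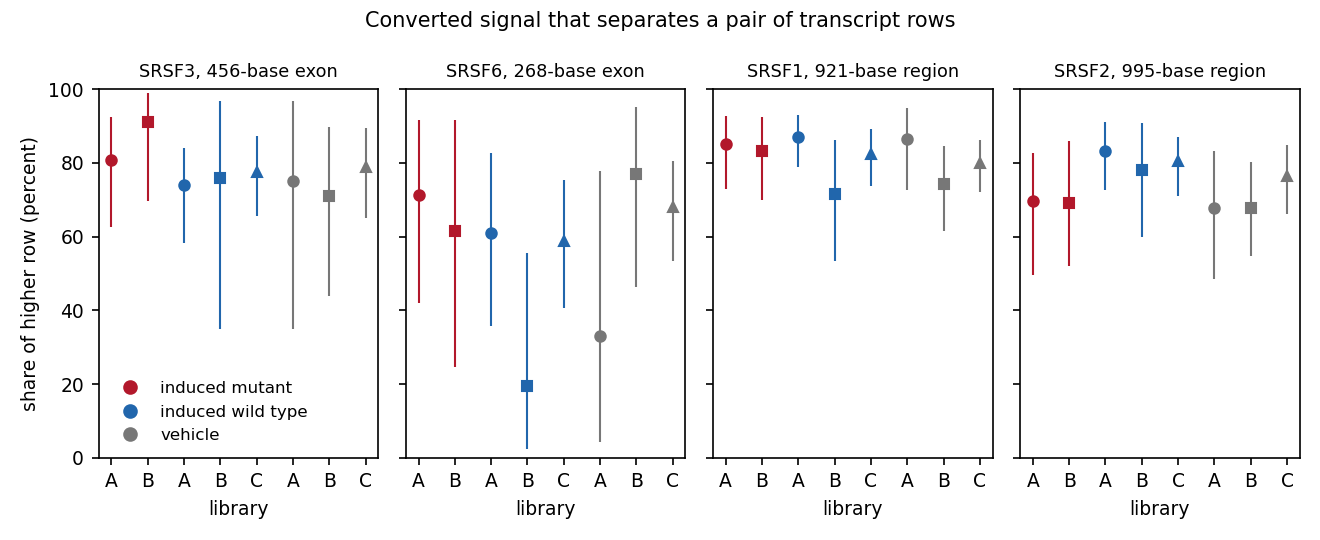
Share of the higher transcript row's converted FPKM that is absent from the lower row (percent), for 4 genes and 8 libraries, with the exact 95% interval from approximate read counts. SRSF3 lies between 70.9% and 91.0%, and SRSF6 spreads from 19.4% to 77.1%.

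SRSF1 is the founding SR protein and a known oncogene product, and SRSF2 binds both purine-rich and pyrimidine-rich enhancers. Each also had a pair of rows separated by a region, which made up far more of the intron bases than the SRSF3 exon does. For SRSF1 the kept converted row was a noncoding one, in which 921 bases (chr17:58004002-58004922, - strand, GRCh38) are intron that a coding row holds as exon. This region is 54.0% of the noncoding row's intron bases. It carried 85.1% and 83.2% of the row's converted FPKM in the induced mutant, 71.6% to 87.1% in induced wild type and 74.3% to 86.4% with vehicle. That coding row is the longer of 2: of the same noncoding row's introns, 74 bases are exon in the other coding row and 847 bases lie outside it. For SRSF2 a region of 995 bases (chr17:76735159-76736153, - strand, GRCh38) is intron in a 3-exon coding row and exon in a 2-exon coding row. It makes up 74.9% of the 3-exon row's intron bases, a part near the shares of converted signal given below. The region's converted signal was 6.96 and 7.05 FPKM in the mutant libraries, 13.1, 12.1 and 17.9 in the induced wild type libraries, and 11.0, 12.3 and 11.9 in the vehicle libraries. Both mutant libraries were below all 6 others. The means differed by -4.70 FPKM for induced mutant against vehicle and by -7.39 for induced mutant against induced wild type, each with an exact permutation p of 0.1, the smallest possible, and an adjusted p of 0.4. As a share of its row the region did not set the mutant apart from vehicle, with means of 69.3% in the induced mutant, 80.5% in induced wild type and 70.6% with vehicle. The share differed by -1.32 points for induced mutant against vehicle (exact permutation p = 1). It differed by -11.2 points for induced mutant against induced wild type and by 9.88 points for induced wild type against vehicle, each without overlap and with an exact permutation p of 0.1 (adjusted p = 0.4). SRSF2 shares its place in the genome with MFSD11 and a clone-named coding gene on the opposite strand and with MIR636 on the same strand. SRSF1 overlaps a clone-named coding gene on the same strand and has a processed copy elsewhere, and SRSF11 overlaps an antisense gene. The use of strand in counting is not given in the sources used, so reads of these could not be told apart from those of the SR gene.

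No SR gene was called in all reads. The comparison of induced mutant with vehicle called 0 of 10 members, beside 0.0321% of 12454 genes. Against induced wild type the mutant gave 0 of 10, again beside 0.0321%, and for induced wild type against vehicle 0 of 10 passed, beside 0% of genes by limma and 0.939% at an unadjusted p below 0.05 (2 genes by edgeR and by DESeq2). The members' median log2 fold change was -0.12 for induced mutant against vehicle, where that of all genes was -0.04. Both medians were -0.12 for induced mutant against induced wild type, and for induced wild type against vehicle the members' median was 0.06 and that of all genes 0.09. In both comparisons that involve induced wild type the sign of the members' median rests on the scaling. With each library's median gene set to 0 the members' median was 0.01 for induced mutant against induced wild type (0.03 by edgeR, 0.04 by DESeq2), and for induced wild type against vehicle it was -0.08 (-0.06 by edgeR, -0.08 by DESeq2). Standard errors of single members ran from 0.14 to 0.30, so changes of this size are not resolved with 2 or 3 libraries. In bulk RNA, less RNA per cell and fewer cells with the RNA cannot be told apart.

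By gene, SRSF7 had 85.3 and 91.3 CPM in the mutant libraries, against 72.6, 82.2 and 83.7 CPM in the vehicle libraries. It was the only member whose mutant libraries were both above all vehicle libraries, as 4.61% of genes were, and its log2 fold change was 0.15 ± 0.16 (SE, limma adjusted p = 1). SRSF1 had 139.5 and 139.3 CPM in the mutant libraries, against 142, 157 and 157 CPM with vehicle, and was the only member wholly below, as were 11.4% of genes. SRSF5, first described as a growth-induced gene in regenerating rat liver, had 57.6 and 53.4 CPM in the induced mutant, against 65.4, 58.7 and 83.4 CPM in induced wild type. These groups did not overlap, as was so for 13.2% of genes in that direction, and the log2 fold change was -0.30 ± 0.20 (SE, limma adjusted p = 1).

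For the other members the groups overlapped in every all-read comparison. Overlap did not mean a small difference of means. For induced mutant against induced wild type the log2 fold change was -0.30 ± 0.25 for TRA2A and -0.42 ± 0.30 for SRSF11 (SE). SRSF2 averaged 189 ± 1.00 CPM in the induced mutant (SD, n = 2), 196 ± 19.5 CPM in induced wild type and 206 ± 22.8 CPM with vehicle (SD, n = 3 each). SRSF3 averaged 118 ± 10.8 CPM in the induced mutant, 124 ± 16.6 CPM in induced wild type and 133 ± 9.92 CPM with vehicle. SRSF4, a long SR protein, averaged 59.0 ± 2.88 CPM in the induced mutant, 65.7 ± 17.2 CPM in induced wild type and 58.5 ± 13.3 CPM with vehicle. SRSF6 averaged 87.8 ± 7.93 CPM in the induced mutant, 99.9 ± 18.5 CPM in induced wild type and 95.9 ± 20.8 CPM with vehicle. The transformer-2 proteins are sequence-specific activators named after a Drosophila sex-determination gene. TRA2A averaged 37.9 ± 3.01 CPM in the induced mutant, 47.5 ± 8.61 CPM in induced wild type and 44.6 ± 11.9 CPM with vehicle. TRA2B averaged 83.7 ± 9.99 CPM in the induced mutant, 92.7 ± 23.7 CPM in induced wild type and 88.6 ± 16.2 CPM with vehicle.

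Over all 8 libraries the 4 members with the longest spans had the largest ratios of highest to lowest CPM. Within groups this order did not hold throughout: with vehicle the SD was 16.2 CPM on a mean of 88.6 CPM for TRA2B and 20.8 CPM on 95.9 CPM for SRSF6, a shorter gene. SRSF11, an SR-related protein found with the spliceosome, has a span of 45.9 kb and had 69.2 and 53.0 CPM in the mutant libraries, 76.2, 64.7 and 109.6 CPM in the induced wild type libraries, and 49.8, 90.4 and 96.6 CPM in the vehicle libraries. Its highest library exceeded its lowest by a factor of 2.20. The factor was 1.97 for SRSF4 (34.2 kb), 1.82 for TRA2A (27.3 kb) and 1.68 for TRA2B (22.2 kb). It was 1.30 for SRSF2 (3.26 kb), 1.31 for SRSF1 (3.90 kb), 1.33 for SRSF3 (11.2 kb) and 1.36 for SRSF7 (7.90 kb). SRSF5 (4.88 kb) at 1.56 and SRSF6 (6.32 kb) at 1.59 lay between. Vehicle A was the lowest library for SRSF4, SRSF6, SRSF11 and TRA2A, and induced wild type C the highest for these and for SRSF1, SRSF5 and TRA2B. The part of the conversion difference between these libraries in the levels was not tested. Without vehicle A the members' median log2 fold change in all reads was -0.22 for induced mutant against vehicle, and for induced wild type against vehicle it was -0.11. Without induced wild type C it was -0.04 for induced mutant against induced wild type and -0.10 for induced wild type against vehicle.

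**Figure D2:**
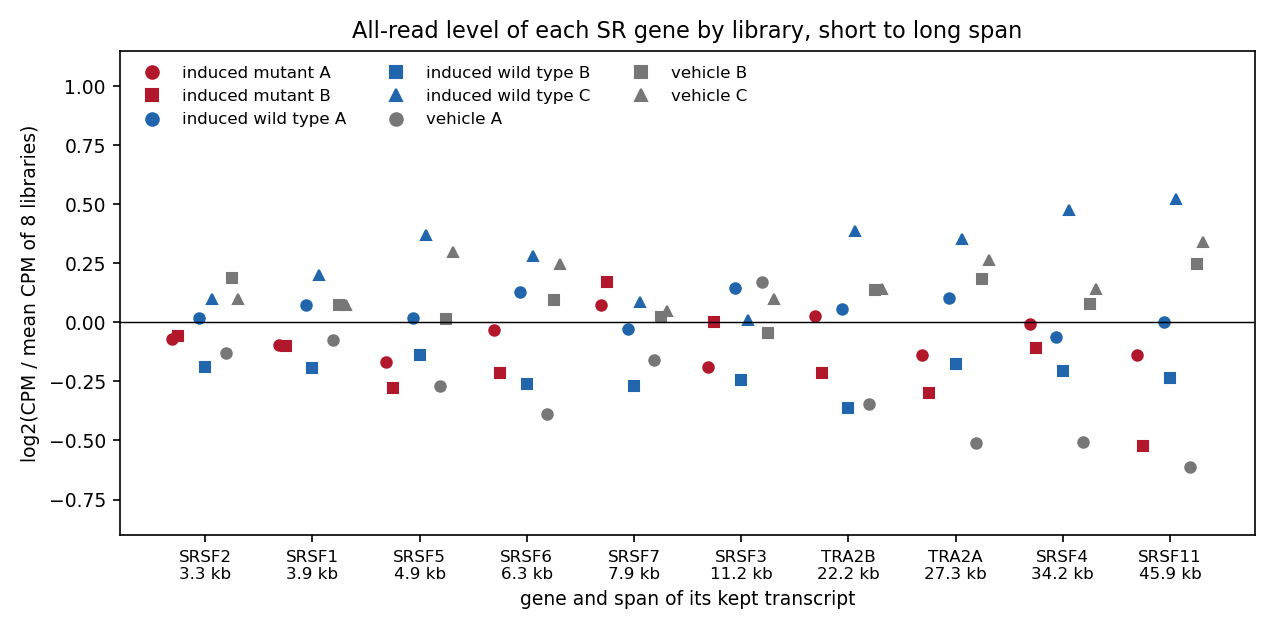
All-read level of each SR gene in 8 libraries as log2 of CPM over the gene's mean CPM, with genes from the shortest span (SRSF2, 3.26 kb) to the longest (SRSF11, 45.9 kb). The points of SRSF4, SRSF11, TRA2A and TRA2B spread furthest over the 8 libraries, with induced wild type C high and vehicle A low except in TRA2B, where induced wild type B was lowest.

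The conversion rate, the share of T bases read as C, ordered the genes in much the same way in every library. It is a rate per T base and not per read: of 12594 values above 0 in transcripts with exactly 1 read, 12527 lay strictly between 0 and 1. SRSF4 had the highest rate of the members in all 8 libraries, at 10.2% and 8.31% in the mutant libraries, 10.4%, 9.67% and 10.5% in the induced wild type libraries, and 8.31%, 10.0% and 10.7% in the vehicle libraries. With vehicle it averaged 9.69% ± 1.24 (SD, n = 3), the 95.6th percentile of 6289 genes with at least 10 CPM, whose median was 5.61%. SRSF1 stood at the other end, at 4.34% and 3.27% in the mutant libraries, 4.01%, 2.96% and 5.09% in induced wild type, and 3.01%, 3.55% and 4.33% with vehicle. It was the lowest member in 7 of 8 libraries, with SRSF11 below it in vehicle A, and its vehicle mean of 3.63% ± 0.66 was at the 27.3rd percentile.

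Between them, the vehicle means were 7.43% for SRSF5, 6.90% for TRA2B, 6.88% for SRSF6, 6.53% for SRSF2, 5.95% for SRSF7, 5.15% for SRSF3, 4.79% for TRA2A and 4.36% for SRSF11. Only SRSF4 and SRSF5 are neighbours in this order whose vehicle libraries did not overlap. The other neighbours differed by less than the spread over libraries, although SRSF2 was above SRSF7 and SRSF7 above SRSF3 in 8 of 8 libraries. TRA2B and SRSF6 changed places, with TRA2B higher in 4 of 8. The order did not follow span, since SRSF4 and SRSF11 have the longest spans and were the highest and the second lowest by the vehicle mean. Paralogues differed too: TRA2B was above TRA2A with vehicle, at 5.87%, 7.08% and 7.76% against 4.30%, 4.73% and 5.34%. If reads are counted over the whole span, the rate mixes introns with exons, in a proportion that was not measured.

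**Figure D3:**
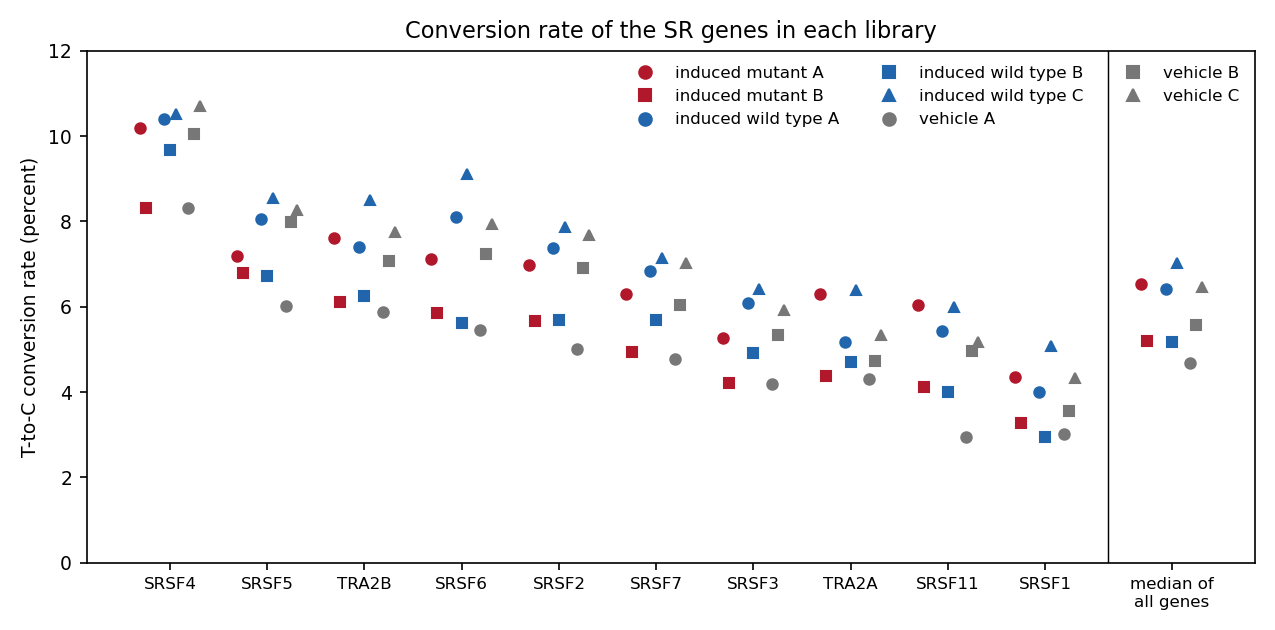
Conversion rate (percent of T bases read as C) of each SR gene in 8 libraries, in falling order of the vehicle mean, with the median of 6289 genes at the right. SRSF4 lies between 8.31% and 10.7% and SRSF1 between 2.96% and 5.09%.

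Conversion did not separate the groups for any member. Of the 10 members 0 passed for induced mutant against vehicle, beside 0.0318% of 6289 genes, 0 for induced mutant against induced wild type, beside 0.0159%, and 0 for induced wild type against vehicle, beside 0.0318%. In each comparison the groups of all 10 members overlapped. Among all genes 3.78% were wholly higher and 2.97% wholly lower for induced mutant against vehicle, 1.07% and 6.89% for induced mutant against induced wild type, and 3.47% and 0.111% for induced wild type against vehicle. The members' median conversion was 6.64% and 5.30% in the mutant libraries, where the all-gene median was 6.54% and 5.19%. It was 7.11%, 5.65% and 7.50% in the induced wild type libraries, with all-gene medians of 6.42%, 5.17% and 7.04%. With vehicle it was 4.90%, 6.47% and 7.37%, with all-gene medians of 4.69%, 5.58% and 6.45%. The members thus moved with all genes from library to library, at 1.02 to 1.16 times the all-gene median.

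New RNA of the SR genes was also not called, while 9 of 10 fold changes of induced mutant against vehicle were below 0. The values were set relative to the median gene of each library. Against vehicle the mutant gave 0 of 10 members, beside 0.0414% of 9652 genes. A log2 fold change below 0 was found for 9 members and for 57.7% of all genes, with a median of -0.14 for the members and -0.05 for all genes. Without vehicle A it was also 9 members, with a median of -0.18. SRSF2, SRSF3, SRSF5, SRSF6 and TRA2B had both mutant libraries below all vehicle libraries, 5 of 10 members beside 13% of genes. That count rests on the centring. In the uncentred index only SRSF3 stayed below without overlap, at 5.81 and 5.30 in the mutant libraries against 5.93, 6.49 and 7.97 in the vehicle libraries. Vehicle A was below both mutant libraries for SRSF2, SRSF5, SRSF6 and TRA2B. Only SRSF7, at 0.02 ± 0.18 (SE), was not below 0.

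SRSF5 had the most negative fold change of these. Its log2 new RNA relative to the library's median gene was 1.96 and 2.26 in the mutant libraries, 2.30, 2.42 and 2.35 in the induced wild type libraries, and 2.39, 2.50 and 2.53 in the vehicle libraries. The mutant libraries were below all 6 others, and 9.1% of genes lay wholly below induced wild type in the same way. The log2 fold change was -0.36 ± 0.18 against vehicle and -0.25 ± 0.18 against induced wild type (SE, limma adjusted p = 0.716 and 1). Before centring the new RNA index of SRSF5 was 4.14 and 3.62 in the mutant libraries and 3.22, 5.22 and 6.57 with vehicle. In the induced wild type libraries it was 5.27, 3.94 and 7.125, so without centring the mutant overlapped with both groups.

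SRSF3 followed, at 2.44 and 2.79 on the same log2 scale in the mutant libraries, 2.97, 2.82 and 2.54 in the induced wild type libraries, and 3.25, 2.81 and 2.80 in the vehicle libraries. The mutant libraries were below the vehicle libraries by little in one case and overlapped with induced wild type. The log2 fold change was -0.34 ± 0.23 against vehicle (SE, limma adjusted p = 0.842). SRSF6 stood at -0.24 ± 0.20 and SRSF2 at -0.21 ± 0.21 against vehicle.

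For induced mutant against induced wild type 0 of 10 members passed in new RNA, beside 0% of genes by limma and 2.97% at an unadjusted p below 0.05. The members' median was -0.11 and that of all genes 0.00, with 7 members below 0, beside 49.6% of genes. For induced wild type against vehicle 0 of 10 passed, beside 0.0207% of genes, and the members' median was -0.11 and that of all genes -0.04. In that comparison the sign rests on the centring: 8 of 10 members were below 0 with it, beside 56.9% of genes, and 0 of 10 without it, where the members' median was 0.14 and that of all genes 0.22. SRSF2 was the only member whose induced wild type libraries were all below vehicle, as were 3.67% of genes, at -0.23 ± 0.18 (SE, limma adjusted p = 0.981). Both comparisons with vehicle share the vehicle libraries.

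**Figure D4:**
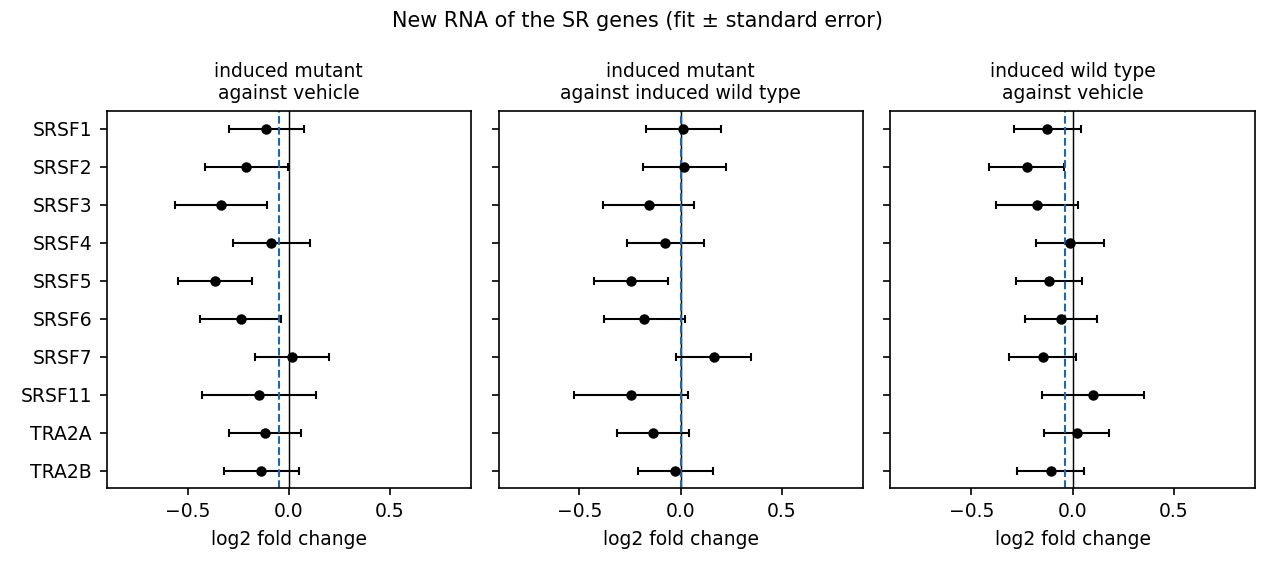
Log2 fold change of new RNA (CPM times conversion rate, relative to the median gene of each library) for each SR gene in 3 comparisons, with the standard error as bars and the all-gene median as a dashed line. In the mutant against vehicle panel 9 of 10 points lie below 0, and no member passed the test in any panel.

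Converted FPKM, which by the row comparison above describes intron-touching signal of the kept row, gave no member call either. Of the 10 members 0 passed for induced mutant against vehicle, beside 0.401% of 5737 genes, and 23 genes passed in all. The members' median log2 fold change was -0.27 and that of all genes 0.17, with 6 members below 0, beside 37.1% of genes. The members' median was -0.37 without vehicle A, -0.15 without vehicle B and -0.03 without vehicle C, so its size rests on single vehicle libraries. For induced mutant against induced wild type 0 of 10 passed, beside 0% of genes by limma and 2.95% at an unadjusted p below 0.05, and the medians were -0.20 for members and -0.04 for all genes. For induced wild type against vehicle 0 of 10 passed, beside 0% by limma and 7.93% at an unadjusted p below 0.05, and the medians were 0.07 for members and 0.23 for all genes. The members' sign here rests on single libraries and on scaling: their median was -0.13 without vehicle A, -0.08 without induced wild type C and -0.27 with each library's median gene set to 0.

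SRSF2 had its lowest values in the mutant line. It had 10.0 and 10.2 converted FPKM in the mutant libraries, 15.8, 15.6 and 22.3 in the induced wild type libraries, and 16.2, 18.1 and 15.6 in the vehicle libraries. Both mutant libraries were below all 6 others, and the 2 groups that share wild-type HMGN1 overlapped. The log2 fold change was -0.66 ± 0.28 against vehicle (SE, limma adjusted p = 0.351) and -0.75 ± 0.28 against induced wild type (SE, limma adjusted p = 1). With each library's median gene set to 0 the adjusted p against vehicle was 0.107, the lowest of any member under any alternative. Its all-read level gave no such gap, at 188.6 and 190.1 CPM in the mutant libraries against 181, 226 and 212 CPM with vehicle. The 995-base region described above averaged 69.3% of this converted value in the induced mutant, 80.5% in induced wild type and 70.6% with vehicle. The converted gap and the gap given for that region therefore rest largely on the same reads.

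SRSF5 had 10.7 and 11.1 converted FPKM in the mutant libraries, 16.2, 17.0 and 21.1 in induced wild type, and 6.77, 15.9 and 22.4 with vehicle. It was below induced wild type without overlap, at -0.68 ± 0.38 (SE), and vehicle A was below both mutant libraries. SRSF1 had 17.6 and 15.7 converted FPKM in the induced mutant, against 23.0, 19.7 and 24.3 with vehicle, which did not overlap. TRA2B had 8.06 and 7.80 in the induced mutant, against 10.7, 8.26 and 11.5 in induced wild type, which did not overlap by a small margin. In this direction 7.81% of genes did not overlap for induced mutant against vehicle (SRSF1 and SRSF2 of 10 members) and 11.8% for induced mutant against induced wild type (SRSF2, SRSF5 and TRA2B). The other members overlapped in every comparison, and TRA2A and SRSF4 reached only 1.03 and 2.10 converted FPKM in vehicle A, which is about 2 and 4 reads.

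**Figure D5:**
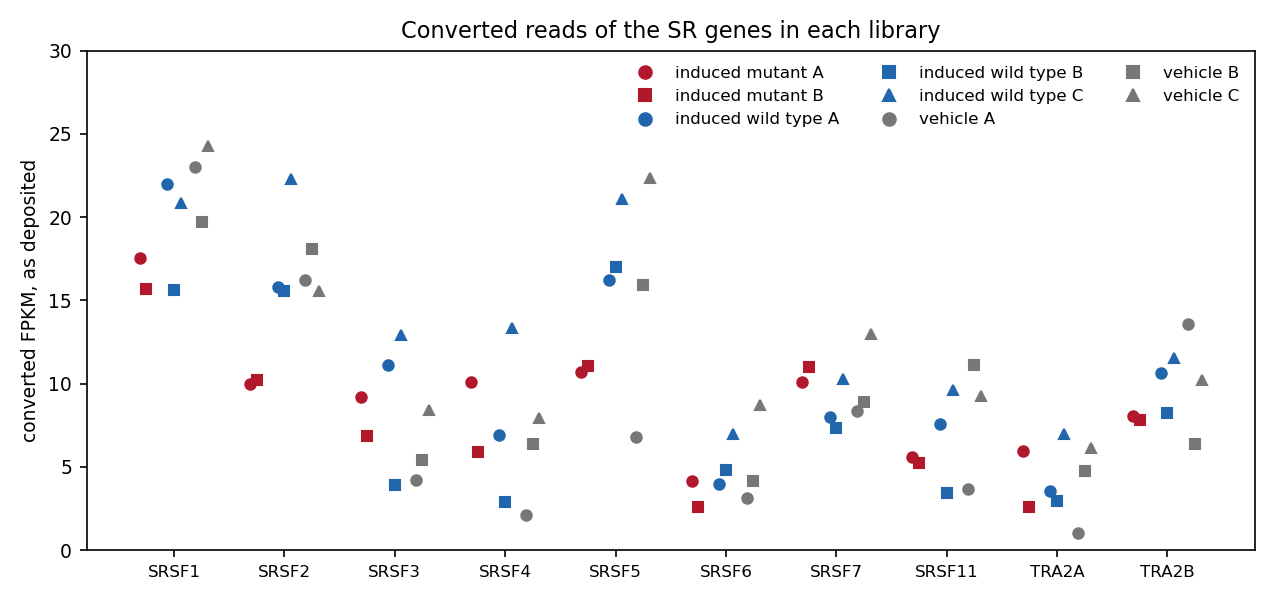
Converted FPKM as deposited for each SR gene in 8 libraries. Levels are not divided by length, so only the libraries of a gene can be compared. For SRSF2 both mutant points, at 10.0 and 10.2, lie below the other 6.

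The genes that work with SR proteins were described in the same way from 6 lists, and 0 genes of any list passed in any readout or direction. In new RNA for induced mutant against vehicle, 3 of 3 tested other SR genes were below 0 (list median -0.06), 13 of 20 genes of RS-domain partners (-0.07), 5 of 9 genes for SR protein kinases and import (-0.01), 13 of 21 hnRNP genes (-0.03), 20 of 28 core spliceosome genes (-0.10) and 7 of 10 genes of nonsense-mediated decay (-0.01), beside 57.7% of all genes with a median of -0.05. Single genes with the smallest p were SRSF10, an SR protein that represses splicing when dephosphorylated, at -0.59 ± 0.21 (SE, limma adjusted p = 0.448), and RSRC1, an RS-domain protein, at 0.85 ± 0.30 (SE, limma adjusted p = 0.445). The uncentred new RNA index of RSRC1 averaged 1.85 ± 1.41 in the 2 mutant libraries (SD), which lay far apart. It averaged 1.11 ± 0.55 in induced wild type and 0.81 ± 0.22 with vehicle (SD, n = 3 each). PRPF4B, a kinase of the spliceosome, stood at -0.66 ± 0.27 and SRPK2, a cytoplasmic SR protein kinase, at 1.08 ± 0.53 (SE) for the same comparison, with limma adjusted p of 0.562 and 0.694. The uncentred index of SRPK2 averaged 10.7 ± 4.30 in the induced mutant (SD, n = 2), 11.7 ± 5.95 in induced wild type and 4.60 ± 0.53 with vehicle (SD, n = 3 each). CLASRP, a CLK-associated RS protein, stood at -0.56 ± 0.23 (SE), HNRNPA1, a splicing repressor that opposes SRSF1, at -0.35 ± 0.17 (SE), and SMG6, the endonuclease of nonsense-mediated decay, at 0.43 ± 0.18 (SE).

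Conversion rates with vehicle differed widely between these lists. The list median was 7.69% for SR protein kinases and import (8 genes with at least 10 CPM), 7.33% for RS-domain partners (20 genes), 7.03% for nonsense-mediated decay (9 genes), 6.27% for other SR genes (3 genes) and 6.24% for the 10 SR members. It was 4.41% for the core spliceosome (28 genes) and 3.40% for hnRNP genes (21 genes), beside 5.61% for all genes. CLK3, a kinase that phosphorylates SR proteins, had 10.7%, and RSRC2 had 10.0%. SMG9, a nonsense-mediated decay factor listed under its older symbol C19orf61, had 10.1%. At the low ends HNRNPD, which binds AU-rich RNA, had 1.53% and SNRPE, a core protein of the small nuclear ribonucleoproteins, had 1.59%. Genes above the all-gene median were 6 of 10 SR members, 16 of 20 RS-domain partners, 4 of 21 hnRNP genes and 10 of 28 core spliceosome genes.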

How the data were processed

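SLAM-seq was measured in 8 libraries, grouped by the labels. The deposited all-read columns (headed CPM) give a signal per RefSeq transcript, from which whole reads were recovered: 100.0% of values lay within 0.1 read of a whole number. The conversion columns were deposited as a fraction of T bases read as C, with 0 where nothing was read. The converted values were deposited as FPKM per transcript. The genome build is hg19 (GRCh37) per the submitters' processing notes, and the aligner, conversion caller and strand setting are not given in the sources used. Transcripts were named by the deposited symbol, or by the RefSeq gene table where it was missing (25396 of 61177 rows). Each gene took its transcript row with the highest mean.

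The main test was limma 3.58.1 (R 4.3.3) with a variance trend, over all 8 libraries and no covariate. It used log2(value + 1) for CPM and FPKM with means of at least 1, log2(value + 0.1) for new RNA with means of at least 0.2 and library medians set to 0, and log2(percent + 0.5) for conversion in genes with a mean of at least 10 CPM. Changes of low genes are therefore understated. For row pairs an exact two-sided permutation test over libraries was used. Exon structures, introns and cassette sequences came from GENCODE 29 on GRCh38, joined by transcript and not mixed with hg19 coordinates. Other steps ran in Python 3.11.15 (pandas 2.3.3, matplotlib 3.10.9).

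As alternatives on recovered reads, edgeR 4.0.16 (TMM scaling, quasi-likelihood) called 5 genes and DESeq2 1.42.0 called 61 for induced mutant against vehicle. On simulated all-read counts, limma and edgeR were tested for induced wild type against vehicle only. The mutant comparisons, the other readouts and DESeq2 were not tested in that way. The members and gene lists were chosen with earlier results of these data known. Named were all 10 members, HMGN1, and from each list the genes that passed, otherwise up to 3 with the smallest p in new RNA, and those with the highest and lowest conversion with vehicle. Not all of them are printed. Other settings tried were pseudocounts, filters, centring, the mean over transcript rows, the groups in the fit, a replicate block and leaving out each library. Intervals cover counting error only and treat each read as independent. Reads carried no molecular identifiers, so copies of 1 molecule could not be told apart in that way, and the intervals can be too narrow. The main fit did not pair samples by replicate letter, and whether the letters mark pairs was not settled.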

Additional observations from a re-analysis of the deposited data

How the results depend on the processing

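The count of members that passed was 0 under all 204 alternatives, over 4 readouts and 3 comparisons, leave-one-out included. Of the single log2 fold changes and medians under alternatives, 16 moved by more than the spread between libraries and 2219 did not. That spread is wide beside the members' changes, so a change of sign can count as not moved. In all reads of induced wild type against vehicle the members' median went from 0.06 to -0.11 without vehicle A. Members below 0 went from 3 to 10 there. Counts over all genes were less stable: converted reads of induced mutant against vehicle gave 23 genes, 41 with median centring, 0 with one prior variance and 0 to 68 when a library was left out. In all reads DESeq2 called 61 genes for induced mutant against vehicle, against 4 by limma and 5 by edgeR. New RNA called 4 genes there, 0 without centring and 54 without a filter. Median centring moved the all-gene median from 0.23 to -0.11 in converted reads of induced wild type against vehicle, and the members' median there was -0.27.

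A fit with a replicate block on the letters passed 0 members in each comparison. The members' all-read median for induced mutant against vehicle was then -0.06, and the converted reads gave 149 calls over all genes. Deviations of same-lettered induced wild type and vehicle libraries correlated at 0.29 for A, -0.36 for B and 0.65 for C. Deviations within a group are tied to each other, so these values cannot settle whether the letters mark pairs. With the block, genes at an unadjusted limma p below 0.05 in all reads went from 466 to 727 for induced mutant against vehicle. They went from 117 to 237 for induced wild type against vehicle and from 342 to 223 for induced mutant against induced wild type.

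Member reads of 275 to 3768 per library limit all-read levels little, while about 2 to 139 converted reads per gene limit converted FPKM and the row shares. The SRSF1 converted value depends on which row is kept. With the block the members' converted median for induced mutant against vehicle was -0.12.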
